A study of Mus musculus with 10 samples.

Results

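The genes examined were 10 antiviral effector genes of the interferon response, Ifit1, Ifit2, Ifit3, Rsad2, Cmpk2, Mx1, Mx2, Isg20, Ifitm3 and Ifi44. They were chosen by name, with earlier results of these libraries known. They are 10 of the 39488 rows of the gene count table, and all 10 were among the 12654 genes with enough counts to be tested. The libraries, 5 control and 5 ox-LDL, were made from peritoneal macrophages of C57BL/6 mice aged 8 weeks, collected on the third day after an injection of thioglycollate, an irritant that draws monocyte-derived macrophages into the peritoneal cavity. By the sample labels the control cells were untreated, and the ox-LDL cells received LPS, a bacterial endotoxin, at 100 ng/ml and then oxidized low-density lipoprotein, the modified particle that macrophages take up in atherosclerotic plaques, at 100 µg/ml for 16 h. The difference between the groups therefore holds LPS and ox-LDL together, and these cannot be told apart. Another reading of the study's own description is that the controls were primed with LPS too, but the labels were followed. The labels name no animal or day of culture for a library, so the p-values measure the spread between these 10 libraries.

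Interferons act on cells through receptor-bound Janus kinases and a complex of transcription factors that includes Stat2 and Irf9 and binds a short element in the promoters of interferon-stimulated genes. Macrophages also switch these genes on after endotoxin is sensed, largely through interferon-β that they make and sense themselves. The effector proteins then act on separate steps of a virus's life cycle, from its entry into the cell to the copying, capping and translation of its RNA.

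Each library held between 19257131 and 20687289 counts, so depth differed little. Levels of 1 gene across libraries are given as CPM, counts divided by the effective library size, which TMM normalization sets by a scaling that assumes most genes do not change. TMM factors ran from 0.593 in ox-LDL replicate 2 to 1.19, and the median log2 fold change of all genes tested was 0.10 with TMM and -0.09 with library size alone. Ox-LDL replicate 2 had the steepest trend of expression on gene length, with short genes high and long genes low (Spearman correlation -0.64 across genes, which are not independent). Of the macrophage markers, all 8 had counts in every library, and their summed level was 23168 to 42854 CPM by library size in control and 13363 to 28376 in ox-LDL libraries. Most of this sum was Lyz2, the lysozyme gene (group means of 27793 for control and 17453 for ox-LDL, in CPM with TMM), whose difference did not pass (adjusted p = 0.371, edgeR). Of the 8 markers, 6 had positive log2 fold changes, as did 7117 of the 12654 genes tested. Of the 8, 2 rose, Adgre1 (2.07) and Cd14 (2.24), and none fell, against 9.40% and 5.35% of all genes tested. These are bulk libraries, in which fewer cells of a type and less RNA per cell cannot be told apart.

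Of the 10 antiviral effector genes, 9 were upregulated in the ox-LDL libraries at an adjusted p below 0.01 (edgeR's quasi-likelihood test with Benjamini-Hochberg adjustment over all genes tested), against 9.40% of all genes tested. These 9 also had a log2 fold change above 2, as did 4.78% of all genes under the same rule. The gene that did not pass was Ifitm3. Ifi44 and Mx2 had enough counts to be tested through the ox-LDL libraries alone, so they could only be called higher. For 9 genes the 5 ox-LDL libraries lay wholly above the 5 controls, a pattern shown by 11.6% of all genes tested. Since the 10 genes were chosen with earlier results known, these counts are not independent evidence of a direction. The median log2 fold change over the 10 genes was 3.86, and the values ran from 1.28 for Ifitm3 to 6.11 for Ifit2. None of the 10 was downregulated, against 5.35% of all genes tested, and all 10 fold changes were positive under each alternative setting, DESeq2 and limma included. By rank of log2 fold change among the 12654 genes, Ifit2 was at 66, Ifi44 at 73, Rsad2 at 96, Ifit1 at 113 and Ifit3 at 154, whereas Mx1, Mx2, Cmpk2 and Isg20 were between 283 and 534 and Ifitm3 was at 1263.

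**Figure D1:**
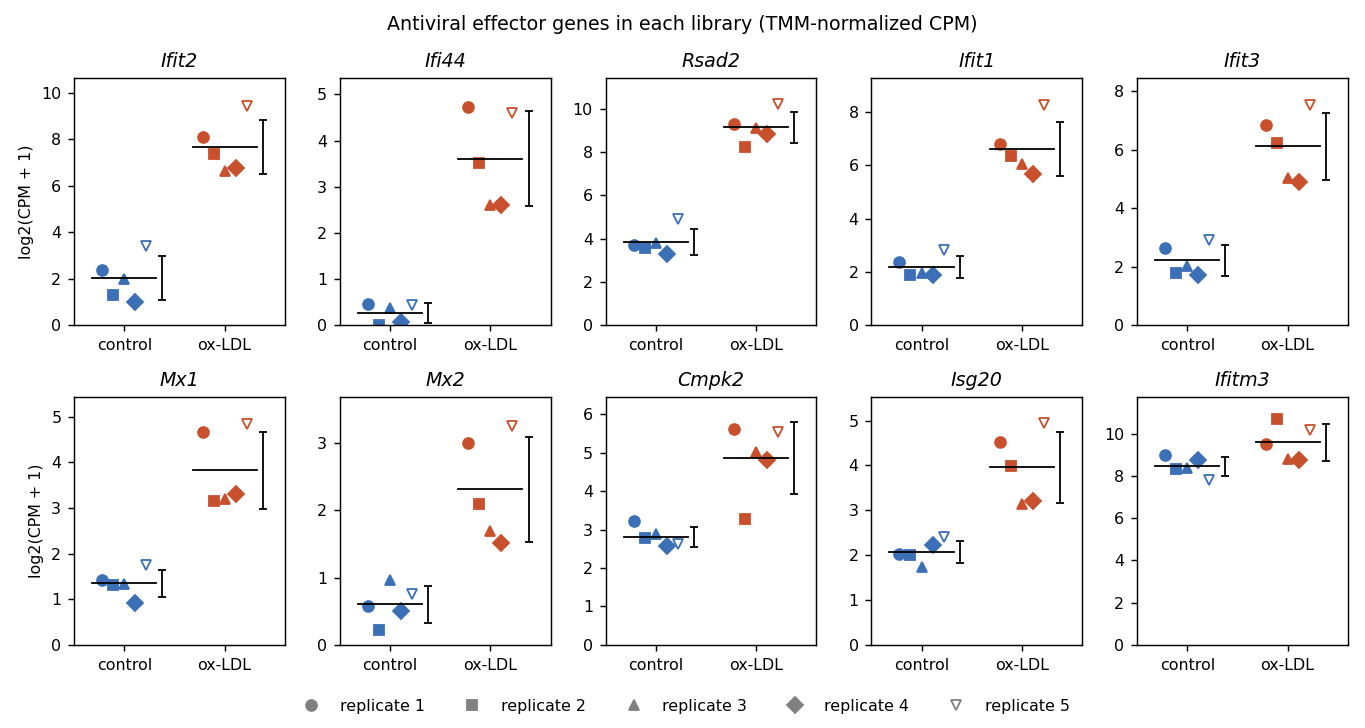
Level of each of the 10 antiviral effector genes in each library, as log2(CPM + 1) with TMM normalization (vertical axis, starting at 0 in each panel), for 5 control and 5 ox-LDL libraries. Symbols mark the replicate number (open triangles are replicate 5), lines the group mean and bars the SD; the groups overlap for Ifitm3 alone, and the lowest ox-LDL point of Cmpk2, replicate 2 at 8.73 CPM, lies just above the highest control at 8.30 CPM.

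Because these genes moved together, their promoter windows were searched for the core of the interferon-stimulated response element, the element bound by that complex and by other Irf proteins. RefSeq windows of 250 bases before and 50 bases after the start site (GRCm38.p6) were at hand for 8 of the 10 genes, all but Mx1 and Mx2. These 8 genes had 11 windows, with more than 1 for Isg20 and for Ifit2. The core, a pair of GAAA half-sites with 2 bases between them on either strand, was found in the windows of Ifit1, Ifit3, Rsad2 and Ifitm3, that is in 4 genes, and in 3.44% of all 32851 windows and 3.99% of all 27025 genes. Shown here are the last 170 bases before the start site of Ifit1, Ifit3 and Rsad2, the same stretch of Cmpk2, which neighbours Rsad2 and holds no match, and the first 30 bases after the start site of Ifitm3. Capitals mark the matches. Those of Ifitm3 read along the gene's strand, and all others read on the strand opposite to the gene.
Ifit1, chr19:34640719-34640888, plus strand: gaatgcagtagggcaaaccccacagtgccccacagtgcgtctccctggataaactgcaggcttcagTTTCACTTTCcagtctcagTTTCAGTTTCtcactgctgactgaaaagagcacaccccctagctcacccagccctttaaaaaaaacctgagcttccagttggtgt
Ifit3, chr19:34583359-34583528, plus strand: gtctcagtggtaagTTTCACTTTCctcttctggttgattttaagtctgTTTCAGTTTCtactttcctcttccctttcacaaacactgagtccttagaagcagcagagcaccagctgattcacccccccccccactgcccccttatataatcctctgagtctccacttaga
Rsad2, chr12:26456453-26456622, minus strand: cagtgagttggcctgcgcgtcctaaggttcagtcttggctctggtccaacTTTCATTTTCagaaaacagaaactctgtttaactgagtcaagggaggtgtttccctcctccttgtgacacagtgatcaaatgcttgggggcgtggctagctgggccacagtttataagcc
Cmpk2, chr12:26469045-26469214, plus strand: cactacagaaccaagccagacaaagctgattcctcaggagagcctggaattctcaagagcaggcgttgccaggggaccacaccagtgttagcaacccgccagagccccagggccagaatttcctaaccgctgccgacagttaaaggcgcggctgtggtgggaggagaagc
Ifitm3, chr7:141010715-141010744, minus strand: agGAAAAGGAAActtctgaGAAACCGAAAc
Ifit1 and Ifit3 held the same pair of matches in the same order, with first bases at -104 and -85 in Ifit1 and at -156 and -122 in Ifit3. Rsad2 held 1 match, from -120 to -111. A second motif, the gamma-activated sequence TTCNNNGAA, was found in the windows of Ifit2, Isg20 and Ifitm3, that is in 3 of the 8 genes, against 8.30% of all windows and 9.55% of all genes, in Ifitm3 overlapping the second match of the response element. For Ifit2 and Isg20 it was in only 1 of their windows, and genes with several windows have more chances of a match. The NF-kB motif was found in none of the 8 genes, against 4.51% of all windows and 5.14% of all genes. A match is a description of the letters in the window, and binding was not measured.

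Ifit1, Ifit2 and Ifit3 encode proteins with tetratricopeptide repeats, of which Ifit1 binds viral RNA that lacks a host-type cap and the others act with it or on translation. They lie in 1 cluster on chromosome 19 of mm9, all on the plus strand, Ifit2 at chr19:34625184-34650909, Ifit3 at chr19:34658021-34663221 and Ifit1 at chr19:34715361-34724499. Ifit2 (NCBI gene 15958) was at 4.15, 1.50, 2.95, 1.03 and 9.60 CPM in control replicates 1 to 5 and at 273, 163, 98.0, 108 and 689 CPM in ox-LDL replicates 1 to 5. The lowest ox-LDL library was 10.2 times the highest control, which was control replicate 5. The group means were 3.85 ± 3.44 and 266 ± 246 CPM (SD, n = 5 each), and the fitted log2 fold change was 6.11 (standard error, SE, 0.80, adjusted p = 2.43e-04, edgeR). For Ifit2 this became 6.79 without control replicate 5 and 5.38 without ox-LDL replicate 5.

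Ifit1 (NCBI gene 15957) was at 4.15, 2.70, 2.91, 2.73 and 6.08 CPM in the control libraries and at 109, 80.6, 64.8, 49.4 and 307 CPM in the ox-LDL libraries, in replicate order. Here too replicate 5 was the highest of both groups, and the groups were 8.13-fold apart at their nearest libraries. Ifit1 rose from a mean of 3.71 ± 1.45 to 122 ± 105 CPM (SD, n = 5 each), by 5.04 on the log2 scale of the fit (SE 0.55, adjusted p = 7.03e-05, edgeR), and of 4.35 without ox-LDL replicate 5. Ifit3 (NCBI gene 15959) was at 5.20, 2.44, 3.08, 2.32 and 6.56 CPM in control and at 113, 74.5, 32.0, 29.0 and 184 CPM in ox-LDL libraries. Its lowest ox-LDL library, replicate 4, was 4.43 times control replicate 5. The log2 fold change of Ifit3 was 4.46 (SE 0.57, adjusted p = 2.06e-04, edgeR). Of the 50-base stretches of Ifit3, 51.5% are also in coding transcripts of other genes, the neighbouring paralog Ifit3b sharing the most. For Ifit1 this was 7.13%, with Ifit1bl2 sharing the most, and Ifit2 shares none. The division of reads between Ifit3, Ifit1 and these paralogs is therefore uncertain. Ifit3b itself rose (log2 fold change 5.00, SE 0.85, adjusted p = 0.00125, edgeR), from at most 8 counts in a control library to 25 to 189 counts in the ox-LDL libraries. Ifit3b also had enough counts to be tested through the ox-LDL libraries alone and could only be called higher.

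Rsad2 encodes viperin, a radical SAM enzyme that turns CTP into a chain terminator of viral RNA synthesis, and Cmpk2 encodes a mitochondrial nucleotide kinase that can make CTP. The genes lie side by side on chromosome 12 of mm9 and point away from each other, Rsad2 at chr12:27127618-27141317 on the minus strand and Cmpk2 at chr12:27154069-27164700 on the plus strand, with 12752 bases between their start sites. Rsad2 (NCBI gene 58185) was at 12.3, 11.0, 12.8, 8.65 and 28.6 CPM in control replicates 1 to 5 and at 618, 298, 552, 452 and 1206 CPM in the ox-LDL libraries. The lowest ox-LDL library was 10.4 times control replicate 5, the highest control. Rsad2 rose from 14.7 ± 7.97 to 625 ± 346 CPM (SD, n = 5 each), or 5.41 on the log2 scale of the fit (SE 0.49), with the lowest adjusted p of the 10 genes, 2.61e-05 (edgeR).

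Cmpk2 (NCBI gene 22169) was at 8.30, 5.86, 6.33, 4.94 and 5.21 CPM in control and at 48.4, 8.73, 31.7, 27.4 and 45.8 CPM in ox-LDL libraries. Ox-LDL replicate 2 was far below the other 4 ox-LDL libraries and just above the highest control, control replicate 1. On the count scale this library held 102 counts of Cmpk2, fewer than 4 of the 5 controls (96 to 150 counts), and with library size alone as the scaling, or on the deposited FPKM, the groups overlapped. The group means of Cmpk2 were 6.13 ± 1.33 and 32.4 ± 16.0 CPM (SD, n = 5 each), 2.40 apart on the log2 scale of the fit (SE 0.38, adjusted p = 8.22e-04, edgeR) and of 2.60 without ox-LDL replicate 2. With limma on log2(FPKM + 1), Cmpk2 no longer passed 0.01 (log2 fold change 1.67, adjusted p = 0.0119). Nor did it pass with limma on log2(FPKM + 0.1) (1.97, adjusted p = 0.0153), and the cause was not tested.

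Mx1 and Mx2 encode dynamin-like GTPases that trap viral nucleocapsids. In most inbred laboratory strains, C57BL/6 among them, both genes carry mutations that abolish the functional protein, and RNA alone was measured here. They are neighbours on chromosome 16 of mm9, Mx1 at chr16:97668642-97684514 on the minus strand and Mx2 at chr16:97757690-97782506 on the plus strand. Of the 50-base stretches of Mx2, 6.71% are also in coding transcripts of other genes, Mx1 sharing the most. Mx1 (NCBI gene 17857) was at 1.66, 1.50, 1.54, 0.876 and 2.35 CPM in control and at 24.3, 7.88, 8.14, 8.85 and 27.4 CPM in ox-LDL libraries. Ox-LDL replicates 1 and 5 formed a high pair, and the other 3 were within 1 CPM of each other, all above control replicate 5. The log2 fold change of Mx1 was 3.27 (SE 0.44, adjusted p = 2.94e-04, edgeR). Mx2 (NCBI gene 17858) had few reads, with 9, 4, 22, 8 and 16 counts in the control libraries and 160, 38, 46, 39 and 143 counts in the ox-LDL libraries. In CPM these were 0.171 to 0.941 and 1.87 to 8.54, and replicates 1 and 5 were again the highest of the ox-LDL group. Mx2 rose by 3.05 on the log2 scale (SE 0.55, adjusted p = 0.00163, edgeR). On the deposited FPKM the groups overlapped for Mx2, since control replicate 5 was listed at 1.11 FPKM with 16 counts while control replicate 3 was listed at 0.49 FPKM with 22 counts, and limma on log2(FPKM + 1) gave an adjusted p of 0.0192.

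Isg20 encodes an exonuclease that degrades single-stranded RNA, and Ifi44 encodes an interferon-induced cytosolic protein whose mode of action is less well described. Isg20 (NCBI gene 57444, chr7:86058310-86065248 of mm9, plus strand) was at 3.04, 3.04, 2.35, 3.66 and 4.26 CPM in control and at 21.9, 14.8, 7.85, 8.23 and 29.9 CPM in ox-LDL libraries. The nearest libraries of the groups, ox-LDL replicate 3 and control replicate 5, were 1.84-fold apart. Isg20 rose from 3.27 ± 0.719 to 16.5 ± 9.42 CPM (SD, n = 5 each), or by 2.34 on the log2 scale of the fit (SE 0.38, adjusted p = 8.81e-04, edgeR). Ifi44 (NCBI gene 99899, chr3:151393886-151412911 of mm9, minus strand) had 7, 0, 7, 1 and 8 counts in the control libraries and 587, 121, 105, 107 and 387 counts in the ox-LDL libraries. It was the gene nearest to silence in the controls, with at most 0.387 CPM, and the ox-LDL libraries held 5.12 to 25.5 CPM, highest in replicate 1. The log2 fold change of Ifi44 was 5.97 (SE 0.74, adjusted p = 1.73e-04, edgeR). The control level of Ifi44 rests on 0 to 8 counts per library. As the gene could be tested only through its ox-LDL counts, its p-value is no test of direction.

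Ifitm3, a small membrane protein that blocks the fusion of viruses in endosomes, differed from the other 9 genes in level and in response. Ifitm3 (NCBI gene 66141, chr7:148195485-148196669 of mm9, minus strand) was at 514, 323, 336, 425 and 223 CPM in control replicates 1 to 5 and at 724, 1673, 444, 425 and 1162 CPM in the ox-LDL libraries. Ox-LDL replicates 3 and 4 lay within the control range, and control replicate 5 was the lowest of the controls. The means were 364 ± 110 and 886 ± 532 CPM (SD, n = 5 each), 1.28 apart on the log2 scale of the fit (SE 0.40), and the difference did not pass 0.01 (adjusted p = 0.0349, edgeR). DESeq2 gave an adjusted p of 0.00843 for Ifitm3, and edgeR with the length trend of each library removed gave 0.00186. Without ox-LDL replicate 2 the log2 fold change of this short transcript fell to 0.88, and with the length trend removed it was 1.45. Short genes were high in that library (Spearman correlation -0.64) and also in control replicates 1 (-0.57) and 4 (-0.46). Ox-LDL replicates 3 and 4 had the opposite trend (0.49 and 0.51). The part of length in the values of Ifitm3 was not tested. With library size alone as the scaling, or on the deposited FPKM, the groups of Ifitm3 did not overlap. Of the 50-base stretches of Ifitm3, 10.0% are also in coding transcripts of other genes, Gm7676 sharing the most. The division of those reads is uncertain. None of the 10 genes overlaps another annotated gene on either strand in mm9.

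**Figure D2:**
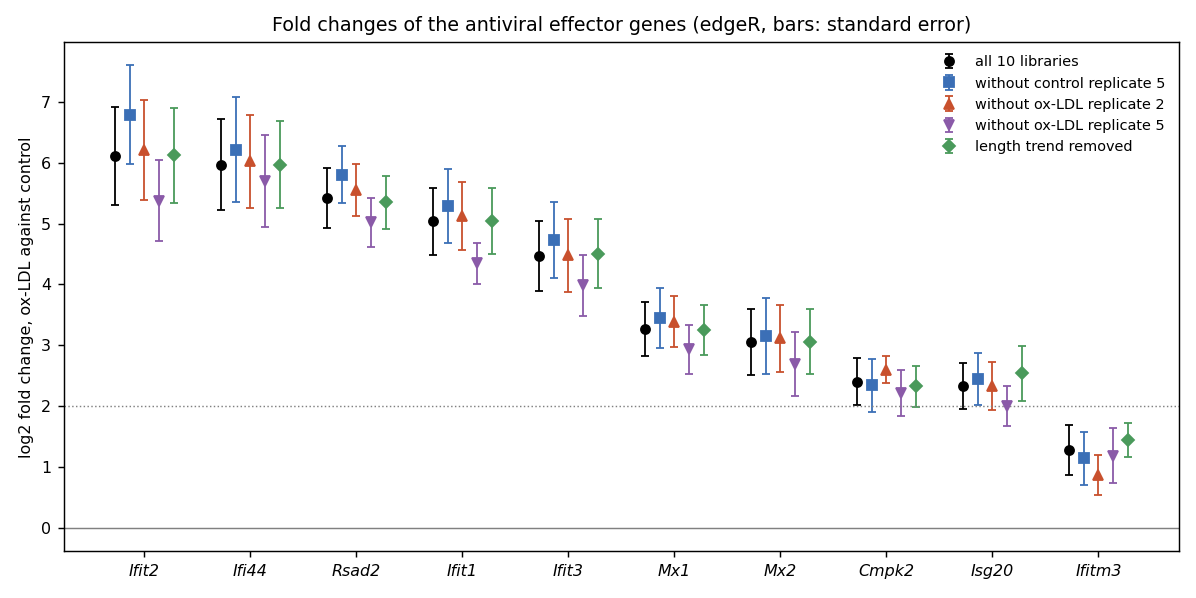
Log2 fold change of each antiviral effector gene, ox-LDL against control (vertical axis), from edgeR with all 10 libraries, without control replicate 5, without ox-LDL replicate 2, without ox-LDL replicate 5 and with the length trend removed; bars are standard errors and the dotted line marks a log2 fold change of 2. All values are above 0, and only those of Ifitm3, from 0.88 to 1.45, are below 2 in every series.

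The call of 9 upregulated genes did not rest on a single library. Leaving out any 1 of the 10 libraries left 9 of the 10 genes called, with Ifitm3 never among them (adjusted p 0.0217 to 0.0835, edgeR). The share of all genes called higher was 8.16% without control replicate 5, 13.5% without ox-LDL replicate 2 and 8.09% without ox-LDL replicate 5, and 8.95% without ox-LDL replicate 1. With library size alone 9 of the 10 genes were called against 5.56% of all genes. All 10 genes were called with DESeq2, against 13.9% of all genes, and with the length trend of each library removed, against 13.0%.

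Control replicate 5 was set apart from the other controls because inflammatory genes had been found high in it. It was above all of controls 1 to 4 for 6 of the 10 genes, Ifit1, Ifit2, Ifit3, Rsad2, Mx1 and Isg20, within their range for Cmpk2, Mx2 and Ifi44, and below them for Ifitm3. Of all genes tested, 29.1% were highest and 26.6% lowest in control replicate 5. Control replicate 1 was the highest control for 3 of the 10 genes and 26.9% of all genes, replicate 2 for 0 and 13.0%, replicate 3 for 1 and 15.9%, and replicate 4 for 0 and 15.1%. As a ratio to the mean of controls 1 to 4, control replicate 5 was 3.99 for Ifit2, 2.56 for Rsad2, 2.01 for Ifit3, 1.95 for Ifit1 and 0.558 for Ifitm3, and 0.820 to 1.88 for the remaining genes. The excess of Ifit1, Ifit2, Ifit3 and Rsad2 over the median of controls 1 to 4 amounted to 1.06%, 1.07%, 2.06% and 1.41% of the level in ox-LDL replicate 5. For Mx1, Mx2 and Isg20 it amounted to 3.02%, 2.81% and 4.07%, for Ifi44 to 0.744%, and for Cmpk2 and Ifitm3 it was negative. Even so, the lowest ox-LDL library was above control replicate 5 for each of the 10 genes, by 1.68-fold for Cmpk2 to 14.7-fold for Ifi44. The cause of the higher values in control replicate 5 was not tested.

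Within the ox-LDL group the level of a gene differed 3.48-fold (Mx1) to 7.03-fold (Ifit2) between the highest and the lowest library. Ox-LDL replicate 5 was the highest for 7 of the 10 genes, ox-LDL replicate 1 for Cmpk2 and Ifi44, and ox-LDL replicate 2 for Ifitm3. The lowest was ox-LDL replicate 4 for 5 genes, replicate 2 for Rsad2, Cmpk2 and Mx1, and replicate 3 for Ifit2 and Isg20. In ox-LDL replicate 2, the log2 level against the mean of the other 4 ox-LDL libraries was 1.41 for Ifitm3, the shortest transcript at 512 bases, and -1.97 for Cmpk2 and -1.14 for Rsad2, at 3001 and 3588 bases. Between these lengths the order was not strict, since Isg20 at 912 bases was at 0.03, Mx1 at 2716 bases at -0.85 and Ifit2 at 3158 bases at -0.37. Whether transcript length set these values was not tested.

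Levels of different genes can be compared only per length, and for this the deposited FPKM were used. In the control libraries Ifitm3 was at 730 ± 149 FPKM and the other 9 genes were at or below 4.40 ± 2.66 FPKM, the mean of Rsad2 (SD, n = 5). Next in the control order came Isg20 at 3.65, Ifit3 at 2.27, Cmpk2 at 2.13, Ifit1 at 1.59, Ifit2 at 1.28, Mx1 at 0.618, Mx2 at 0.414 and Ifi44 at 0.084 FPKM. Apart from Ifitm3, the ranges of all neighbours in this order overlapped, and Rsad2 was above Isg20 in 3 of the 5 libraries. In the ox-LDL libraries Ifitm3 was still the most abundant, at 1445 ± 503 FPKM, and Rsad2 followed at 165 ± 83.8 and Ifit2 at 76.5 ± 62.0 FPKM (SD, n = 5 each). Ifit1 at 44.5 and Ifit3 at 42.8 FPKM were not separated, with Ifit1 above Ifit3 in 3 of the 5 libraries. Isg20 at 17.4 and Cmpk2 at 10.8 FPKM were below them, and Mx1 at 5.40, Ifi44 at 4.84 and Mx2 at 2.22 FPKM were the least abundant. The ranges of neighbours below Ifitm3 overlapped here as well. In this order Ifit2 moved from the seventh place in the controls to the third, and Isg20 from the third to the sixth.

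**Figure D3:**
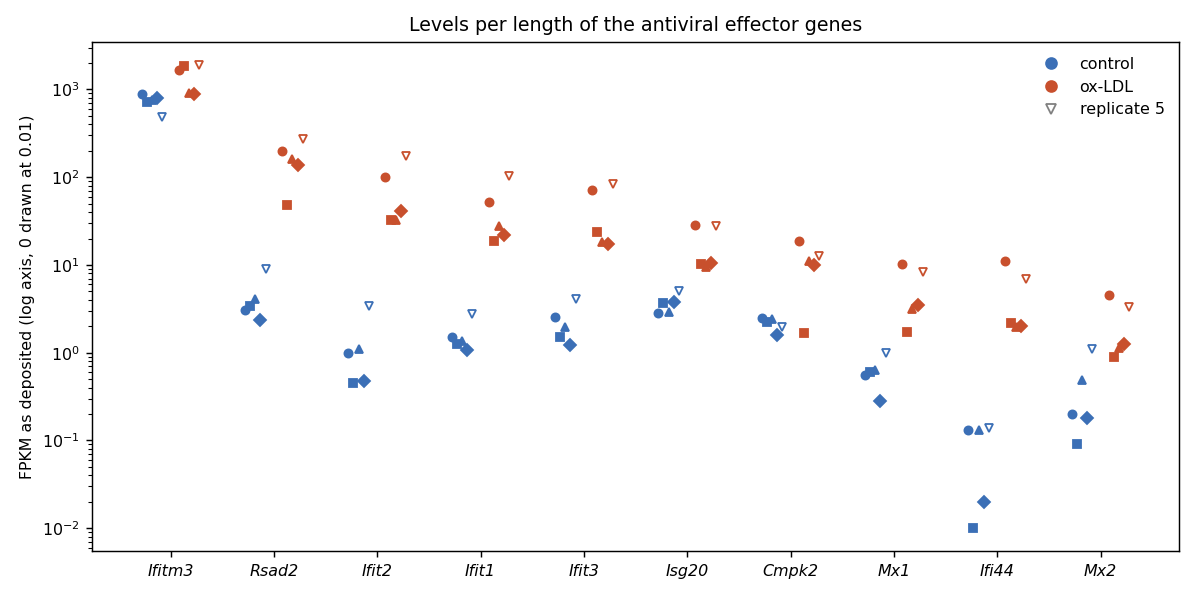
Deposited FPKM of the 10 antiviral effector genes in each control and ox-LDL library (log axis, the 1 value of 0 drawn at 0.01), ordered by the mean of the ox-LDL group, with replicate 5 as open triangles. Ifitm3 lies above all other genes in both groups, and the ox-LDL libraries of Rsad2, Ifit2, Ifit1 and Ifit3 lie between 17.2 and 276 FPKM against 0.45 to 9.01 FPKM in the controls.

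Ratios of 2 genes within a library do not depend on how that library was scaled, and 4 pairs were compared. The log2 ratio of Rsad2 to Cmpk2 counts was 0.56, 0.90, 1.01, 0.80 and 2.45 in control replicates 1 to 5 and 3.67, 5.08, 4.12, 4.04 and 4.72 in the ox-LDL libraries. All ox-LDL ratios were above all control ratios, and control replicate 5 stood nearest to them. The means were 1.14 ± 0.747 and 4.33 ± 0.562 (SD, n = 5 each), a difference of 3.18 on the log2 scale (two-sided exact permutation test, p = 0.00794, the smallest that 5 libraries against 5 allow, and 0.0159 adjusted over the 4 pairs). Rsad2 thus rose more than its neighbour Cmpk2 in these libraries. The log2 ratio of Ifit2 to Ifit3 was -0.32, -0.70, -0.05, -1.13 and 0.55 in control and 1.28, 1.13, 1.62, 1.89 and 1.90 in ox-LDL libraries. It too did not overlap between the groups, and the difference was 1.89 (exact permutation test, p = 0.00794, adjusted 0.0159). The counts of Ifit3 here and in the next ratio rest on an uncertain division of reads with Ifit3b. A ratio is also not free of a library's length trend, and Ifit2 and Ifit3 have 3158 and 1831 bases. The part of either in the ratio was not tested. For Ifit1 to Ifit3, the log2 ratio was -0.03 ± 0.217 in control and 0.52 ± 0.457 in ox-LDL libraries (SD, n = 5 each), and the difference of 0.55 did not pass (exact permutation test, p = 0.0635, adjusted 0.0847). Mx1 to Mx2 gave 1.57 ± 0.831 and 1.76 ± 0.347 (SD, n = 5 each), and the difference of 0.18 was within the spread between libraries (exact permutation test, p = 0.651, adjusted 0.651).

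**Figure D4:**
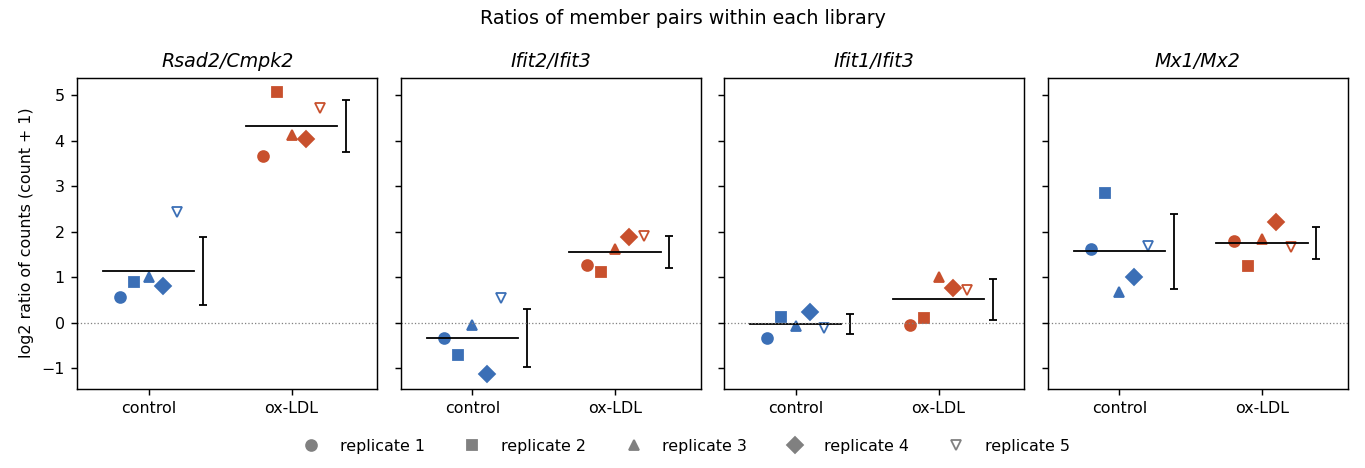
Log2 ratio of the counts of 4 gene pairs within each library (vertical axis, count + 1), with the group mean as a line and the SD as a bar; open triangles are replicate 5. The control and ox-LDL libraries do not overlap for Rsad2/Cmpk2 and Ifit2/Ifit3, and they overlap for Ifit1/Ifit3 and Mx1/Mx2.

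The other genes of the pathway were described from lists chosen with earlier results of these libraries known, so their counts are not independent evidence of a direction. Among the interferons themselves, Ifnb1 had 0 counts in every control library and 2, 1, 1, 0 and 6 counts in the ox-LDL libraries, too few to be tested, and Ifna11 had 1 count in all. Ifng had 0, 0, 0, 0 and 5 counts in the control and 31, 168, 48, 56 and 405 counts in the ox-LDL libraries (log2 fold change 7.41, SE 1.20, adjusted p = 8.60e-04, edgeR). The only control with Ifng counts was replicate 5, and ox-LDL replicate 5 had the most. Ifng had enough counts to be tested through the ox-LDL libraries alone, so it could only be called higher. Of the receptor genes, Ifnar2 rose (1.58, adjusted p = 0.00438) and Ifngr1 fell (-1.66, adjusted p = 1.84e-04), and Ifnar1 and Ifngr2 had log2 fold changes of 0.21 and 0.16 that did not pass (edgeR). In all, 2 of the 5 ligand and receptor genes tested were called higher and 1 lower, against 9.40% and 5.35% of all genes tested. The count higher was 1 without any single control library, without ox-LDL replicate 5 and under the replicate block.

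Of 11 signal transducer and transcription factor genes, 6 rose and none fell, against 9.40% and 5.35% of all genes tested, with a median log2 fold change of 1.64 against 0.10 over all genes. Among those that rose were Irf1 (4.70), Irf7 (4.54), Irf8 (3.24), Stat2 (2.10) and Jak2 (1.64), whereas Irf9, a DNA-binding partner of Stat2, had a value of 1.00 and an adjusted p of 0.0117 (edgeR). Jak1, Irf5, Tyk2 and Irf3 had values from -0.16 to 0.81 and did not pass, and Irf3 was the only gene of the 11 with a negative value. Control replicate 5 was the highest control for 9 of these 11 genes, against 29.1% of all genes tested, and for Irf7 it held 66.3 CPM against 8.39 to 17.9 in controls 1 to 4. Of 8 negative regulators of the pathway, Socs3 (5.58), Socs1 (5.12), Usp18 (2.17) and Ptpn2 (1.31) rose, although the groups overlapped for Usp18, and none fell, against 9.40% and 5.35% of all genes tested, and the median of the 8 was 1.04. The count of negative regulators that rose was 2 without any one of control replicates 1 to 4 and without ox-LDL replicate 5. Socs1 had enough counts to be tested through the ox-LDL libraries alone, so it could only be called higher. Usp18 encodes the protease that removes Isg15 from proteins and blocks the Ifnar2 chain, and Socs1 and Socs3 encode inhibitors of the Janus kinases.

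Of 30 other interferon-stimulated genes, 23 rose and none fell, against 9.40% and 5.35% of all genes tested, with a median log2 fold change of 1.90 against 0.10 over all genes and positive values for all 30, from 0.26 (Tor3a) to 5.50 (Isg15). The ubiquitin-like modifier gene Isg15 and the nucleic acid sensor gene Zbp1 (5.41) were in the range of the Ifit genes. Genes of the oligoadenylate synthetase family, whose active members make a second messenger in cells that hold double-stranded RNA, ran from 1.55 (Oas1a) to 5.10 (Oasl1). Eif2ak2, the RNA-activated kinase PKR, Ddx58, the RNA sensor RIG-I, Trim21, Trim30a, Ifi27l2a and Tor3a were among those that did not pass. In this list 14 genes passed with a log2 fold change above 2, as did 9 of the 10 antiviral effector genes and 4.78% of all genes tested.

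Paralogs of the effectors, 11 by the list, were described beside them. Ifi44l had no row, and Ifit1bl1, Ifit1bl2 and Ifitm10 had too few counts to be tested. Ifit1bl1 held 5, 4, 2, 2 and 3 counts in control and 92, 7, 36, 25 and 61 in ox-LDL libraries. For Ifit1bl2 (means of 0.200 and 0.678 CPM) and Ifitm10 (0.088 and 0.394 CPM) the groups overlapped. Of 7 paralogs tested, 1 rose (Ifit3b), 1 fell and 5 did not pass, with a median log2 fold change of 0.03, against 9.40% higher, 5.35% lower and a median of 0.10 over all genes tested. With so few genes these shares are near those of all genes, and the count higher was 0 with a minimum of 10 counts in every library and 2 with DESeq2, without any single control library and without ox-LDL replicate 2. The count lower was 0 without ox-LDL replicate 4. Ifitm6, which neighbours Ifitm3, fell from 13.2 to 0.542 CPM (log2 fold change -4.51, SE 0.91, adjusted p = 0.00342, edgeR), and its lowest control was replicate 5 at 4.04 CPM. Ifitm6 had enough counts to be tested through the control libraries alone, so it could only be called lower. Ifitm2 had a value of -0.32 and Ifitm1 of 2.51 (adjusted p = 0.381 and 0.0192, edgeR). Cmpk1, the cytosolic counterpart of Cmpk2, and Aen and Isg20l2, which resemble Isg20, had values from -0.05 to 0.38 and did not pass.

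**Figure D5:**
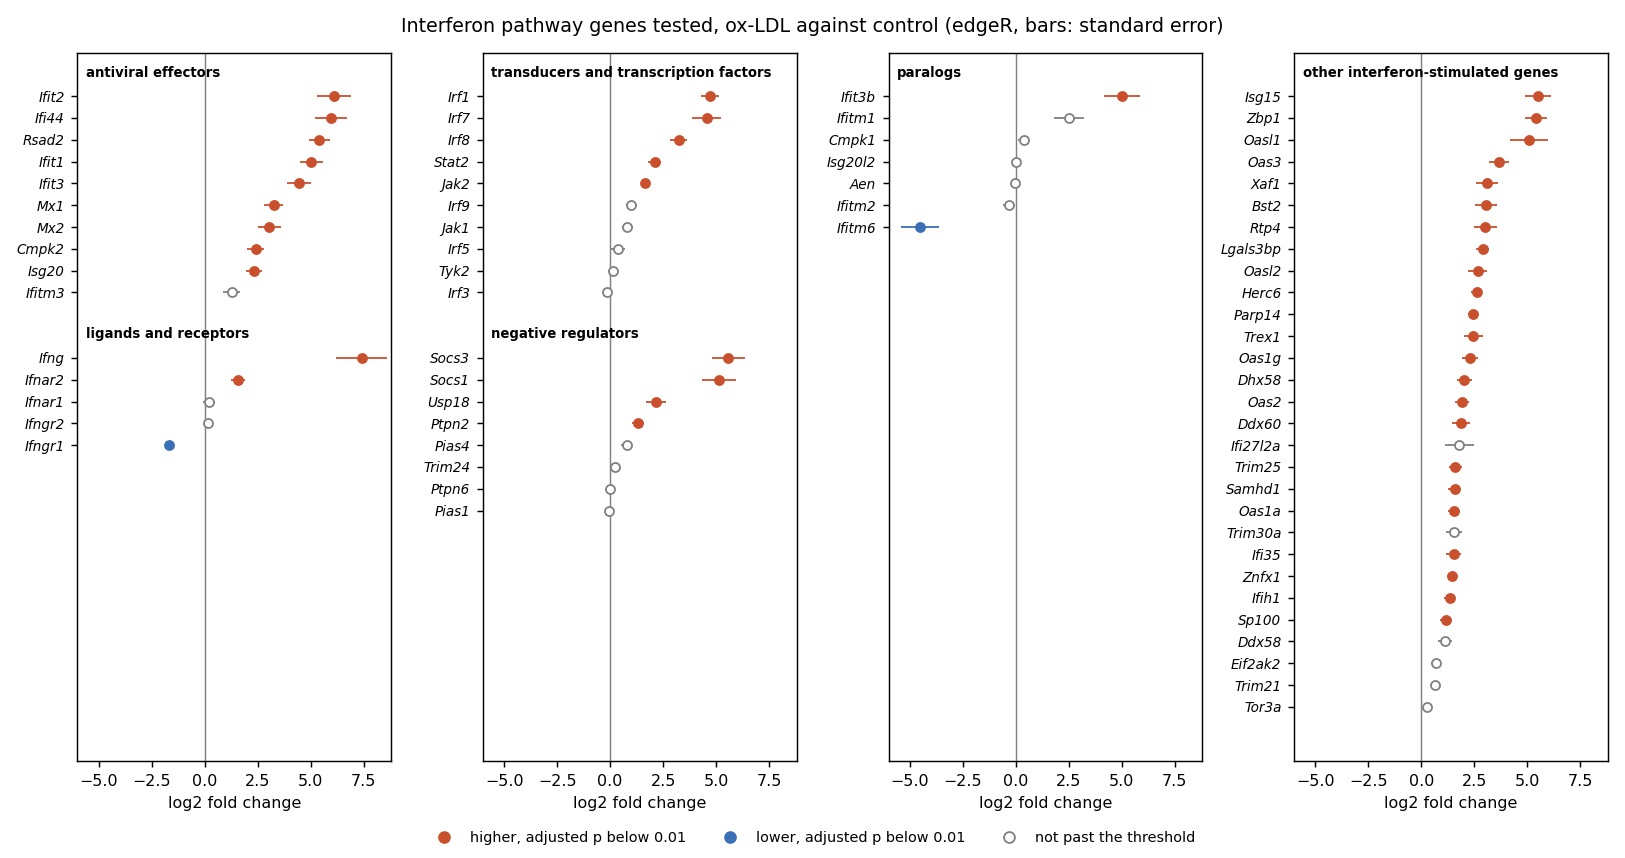
Log2 fold change of tested genes of the interferon pathway lists, ox-LDL against control (horizontal axis), with the standard error as a bar and 1 row per gene; filled red points are higher and filled blue points lower at an adjusted p below 0.01, and open points did not pass. All plotted other interferon-stimulated genes lie above 0, whereas the receptor gene Ifngr1 (-1.66) and the paralog Ifitm6 (-4.51) are the genes called lower.

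By profile over the 10 libraries, in log2(CPM + 1) centred on each gene's mean, Ifi44 was nearest to the mean of the other 9 effectors (root-mean-square distance 0.302), followed by Mx1 (0.448) and Ifit3 (0.520). Ifit2 (1.46) and Ifitm3 (1.35) were the farthest, the former with a steeper and the latter with a flatter profile. Among pairs, Mx2 and Isg20 (0.292) and Ifit1 and Ifit3 (0.406) were the most alike. The added 1 CPM flattens the profile of genes with low control levels, as in Ifi44 (at most 0.387 CPM) and Mx2 (at most 0.941). The fitted log2 fold changes of Ifi44 (5.97) and Ifit2 (6.11) were close, so these distances depend on the level of a gene too. Of 11918 other genes ranked, the 5 nearest to the mean profile of the effectors included Irgm2, an immunity-related GTPase gene (0.333), Siglece, a sialic acid receptor gene (0.376), Ifi213, of the interferon-inducible p200 family (0.395), and Itgal, an integrin gene (0.418). The log2 fold changes of these 5 ran from 3.07 (Irgm2) to 5.69 (Siglece).

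Markers of other cells the lavage could hold were low beside those of macrophages. Summed over each list by library size, T and NK cell markers were at 0.254 to 0.740 CPM in control and 0 to 0.649 CPM in ox-LDL libraries, and conventional dendritic cell markers at 0.759 to 1.21 and 2.23 to 4.04 CPM. Plasmacytoid dendritic cells, a potent source of type I interferon, were represented by 5 markers at 2.34 to 5.62 and 3.35 to 15.6 CPM, of which Cox6a2 gave most and the defining marker Siglech at most 6 counts in a library. Neutrophil markers were at 6.90 to 15.9 and 13.1 to 90.3 CPM, nearly all from S100a8, while Mpo had 0 counts in every control library and at most 2 in an ox-LDL library. The group means of S100a9, Retnlg and Cxcr2 were 0.070, 0.385 and 0.467 CPM in control libraries. In ox-LDL libraries they were 0.060, 0.340 and 0.056 CPM (with TMM), too low to be tested. B cell markers, mostly Cd22, were at 44.0 to 56.1 and 11.8 to 30.7 CPM. Mesothelial and stromal markers were at 3.50 to 11.4 and 6.84 to 36.2 CPM, and eosinophil and mast cell markers at 2.91 to 7.81 and 0.365 to 1.75 CPM. The part of these cells in the levels of the effector genes was not tested.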

How the data were processed

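RNA of 5 control and 5 ox-LDL macrophage libraries was sequenced on a BGISEQ-500 instrument. Per the labels and methods, the authors used mm9 as the genome, HISAT2 2.0.5 as the aligner, SAMtools 1.4 for sorting and StringTie 1.3.3.13 for assembly. They deposited expected counts (estimated counts per gene, not normalized, 13.6% of values not whole) and a length-scaled value whose unit is not named. Counts divided by that value and by the library total gave 1 length per gene (median coefficient of variation 0.970% over 5060 genes), so the deposited values were read as FPKM. How reads were assigned to genes and strands is not given in the sources used here.

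Rows of 9788 circular RNAs were left out. Counts were rounded to whole numbers, filtered by group with filterByExpr, normalized by TMM and tested with edgeR 4.0.16 (robust quasi-likelihood test, Benjamini-Hochberg adjustment) in R 4.3.3. A call was an adjusted p below 0.01, with a log2 fold change cutoff of 2 as a second rule. The standard error of an edgeR log2 fold change was taken as its absolute value divided by the square root of the test's F statistic. The biological coefficient of variation was 37.3%. Total counts of 19257131 to 20687289 per library set the counting precision, and no pair of libraries was alike enough to be 1 library deposited again. Likeness was uneven by mean chi-square per gene, the spread relative to counting noise. Control replicates 2 and 3 were at 12.0, against 42.8 to 198 for other control pairs. Ox-LDL replicates 3 and 4 were at 30.3, against 95.3 to 609 for other ox-LDL pairs. Whether the libraries of a group are independent cannot be told from these values. Ratios of counts (count + 1) were compared by two-sided exact permutation. Alternatives were DESeq2 1.42.0, limma-voom and limma 3.58.1 on log2(FPKM + 1) or log2(FPKM + 0.1), other scalings and filters, the replicate number as a block, removal of each library's length trend and leaving out libraries. The edgeR, DESeq2 and limma-voom fits were run on simulated counts with known changes. No length trend or pairing was built into those counts. They therefore do not test how the length-trend removal or the replicate block deals with such features.

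Symbols came from a RefSeq table, promoter windows from RefSeq (GRCm38.p6) and gene positions from the GENCODE annotation of mm9. Genes named were the 10 effectors, the genes of the pathway, paralog, interferon-stimulated and marker lists, and the 5 other genes nearest in profile. The effectors and all lists were chosen with earlier results of these data known. Values of some single genes of these lists are not reported here, although the genes are part of the counts and medians.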

Additional observations from a re-analysis of the deposited data

Results flagged for a closer look

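In 28 groups of 5 libraries (the CPM of each of the 10 genes and the 4 ratios, in each condition), a library was looked for whose distance to the nearest other library exceeded 0.71 of the group's range. For 5 values of a normal distribution chance gives this in about 1 in 20 groups, and 3 groups held such a library. CPM need not be normal. The groups are also not independent, since Rsad2 in control replicate 5 enters both its CPM and its ratio to Cmpk2. The count of 3 therefore cannot be weighed against that share. Ifit1 was at 307 CPM in ox-LDL replicate 5 against 109 in the next library (share of the range 0.767). Rsad2 was at 28.6 CPM in control replicate 5 against 12.8 in the next (0.793). The log2 ratio of Rsad2 to Cmpk2 was 2.45 in control replicate 5 against 1.01 in the next (0.763). The cause of these values was not tested.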

How the results depend on the processing

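Apart from leaving out single libraries, the 10 effector genes gave 138 combinations of gene and setting, and the log2 fold change was positive in all 138. The number of effectors called higher was 6 to 10 over all settings and 9 under each library left out, and the number called lower was 0. Below the threshold fell Cmpk2 with limma on log2(FPKM + 1) (1.67, adjusted p = 0.0119), on log2(FPKM + 0.1) (1.97, 0.0153) and without a filter (1.67, 0.0466), Mx2 in the same settings (1.09, 0.0192; 2.23, 0.0132; 1.09, 0.0641) and Mx1 without a filter (1.80, 0.0115). Ifitm3 passed with DESeq2 (1.296, 0.00843) and with the length trend removed (1.45, 0.00186). A minimum of 10 counts in each library removed Mx2 and Ifi44. Genes without overlap between groups numbered 9 by library size, with Ifitm3 in place of Cmpk2. By FPKM they numbered 8, without Cmpk2 and Mx2. Both counts were added after the data were seen. The share of all genes without overlap (11.6% higher) was taken with TMM alone, so these 2 counts have no such share beside them. All genes called higher were 1189, and 704 by library size alone, 1843 without control replicate 5 and ox-LDL replicate 2 together, and 555, 543 and 472 in the limma settings on FPKM. All genes called lower were 677, and 1244 with DESeq2, 1483 without those libraries, 1227 with the length trend removed and 436 (control replicate 4 left out) to 1502 (ox-LDL replicate 2 left out) over libraries left out. Ligands and receptors called higher were 1 at 10 counts, under the replicate block and with FPKM unfiltered, and 1 to 2 over libraries left out. Negative regulators called higher were 2 to 4 over libraries left out. Paralogs called higher were 2 with DESeq2, without a count filter, without both libraries and with the length trend removed, 0 at 10 counts, and 1 to 2 over libraries left out. Paralogs called lower were 0 without a count filter and at 10 counts, and 0 to 1 over libraries left out. Other interferon-stimulated genes called higher were 15 with FPKM unfiltered. Over libraries left out, the log2 ratio difference was 3.00 to 3.51 for Rsad2/Cmpk2 and 1.69 to 2.11 for Ifit2/Ifit3, both past 0.05, and 0.42 to 0.69 for Ifit1/Ifit3, which passed without ox-LDL replicate 1 (0.69, adjusted exact permutation p = 0.0317) or 2 (0.65, 0.0423). Mx1/Mx2 ran from -0.037 (without control replicate 3, a reversed sign) to 0.50. The cause of these changes was not tested.

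Control and ox-LDL libraries with the same replicate number did not deviate together in every pair (correlations 0.03, -0.24, 0.42, -0.26 and 0.40), and not every library was most like the one of its own number, so the numbers were not treated as pairs. These correlations do not show that no pairing exists. In the mean profile of the effectors, replicate 5 was the highest, replicate 1 next and replicate 4 the lowest of both groups (-1.20, -1.40 and -1.88 in control and 2.71, 2.12 and 0.86 in ox-LDL libraries, centred log2). With the block, the SE was smaller for 9 effectors (Ifit1 0.29 against 0.55, Ifit2 0.35 against 0.80) and larger for Ifitm3 (0.45 against 0.40). With the replicate block, edgeR called 885 genes higher and 549 lower and 9 effectors higher, and in the paired exact permutation test, which 5 pairs cannot bring below 0.0625, the differences of 3.18 (Rsad2/Cmpk2) and 1.89 (Ifit2/Ifit3) had an adjusted p of 0.125. Depth limits Ifi44 and Mx2 most, with at most 8 and 22 counts in a control library.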
